A study of Homo sapiens with 40 samples.

Results

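SU-DHL-10 is an established human lymphoma line of the diffuse large B-cell type, a fast-growing cancer of mature B cells, and it carries mutant EZH2. Its response to GSK126, a small-molecule inhibitor of EZH2, was read from 4 of the 40 arrays of the series. These were 2 arrays of cells given 500 nM GSK126 for 72 h and 2 arrays of cells given the vehicle, DMSO at 0.1%, for the same time. The members are all genes that a probe set names alone, 19775 in number, of which 15211 passed the filter on dim genes and were tested. The other 4564 genes were below the array median on nearly all arrays and were not tested. The growth IC50 of GSK126 in this line is 448 nM in the labels, just under the dose used. The 9 lines set against it had the same treatments and times. HT, OCI-LY-19 and Toledo are wild type for EZH2, and the other 6, which carry mutant forms of it, are Pfeiffer, DB, SU-DHL-4, WSU-DLCL2, KARPAS-422 and SU-DHL-6. HT, with a growth IC50 of 516 nM, and SU-DHL-6, with 582 nM, lie closest to SU-DHL-10 on the less sensitive side. Each group is 1 cultured line, so it stands for that line and not for a genotype.

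EZH2 is the catalytic subunit of Polycomb repressive complex 2 (PRC2), which places methyl groups on lysine 27 of histone H3 at genes that are kept silent. In the germinal centre, where B cells mutate and select their receptors, EZH2 is abundant and holds back genes of cell cycle arrest and of plasma cell differentiation. Mutations that raise its activity on partly methylated histones are a known feature of lymphomas of germinal centre origin. Histone methylation was not measured on these arrays, which report mRNA only. In bulk samples like these, fewer cells of a kind and less RNA per cell cannot be told apart.

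Levels are given as log2(signal + 17.72), where signal is the deposited array signal and 17.72 keeps very dim values from dominating. The floor of this scale is 4.15, and the array medians lie between 6.36 and 6.62 on it. A change is the mean of the GSK126 arrays minus the mean of the DMSO arrays on this scale, so 1 is a doubling for a bright gene and more than a doubling for a dim one. Errors are standard errors of the fit, each group has n = 2 arrays, and a gene is called risen or fallen where limma's Benjamini-Hochberg adjusted p over all genes tested is under 0.05.

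The lymphoma identity of the cells was intact on the arrays. In both DMSO arrays, 7 of 7 B cell markers on the array (CD79A, CD79B, MS4A1, PAX5, CD22, BLK and EBF1) and 5 of 5 germinal centre markers (BCL6, MME, MYBL1, LMO2 and S1PR2) were above the array median. Among markers of other cells, 1 of 11 for T and NK cells, 1 of 7 for myeloid cells, 4 of 10 for stromal and epithelial cells and 2 of 5 for erythroid and endothelial cells were above it. None of the 8 T and NK markers tested was called, and none of the 7 stromal and 3 erythroid and endothelial ones. Of the 3 myeloid markers tested, LYZ rose by 1.54 ± 0.45 from a level near the floor, and no other changed. The summed signal of the B cell markers was 15.57 and 15.50 on the log2 scale in the DMSO arrays and 15.48 and 15.41 in the GSK126 arrays. The arrays of the line correlated with each other at r = 0.969 to 0.978 over probe sets, and with arrays of other lines at 0.877 to 0.944, so no array stood apart from its label.

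In SU-DHL-10, 1673 genes rose (11.0% of those tested) and 1089 fell (7.16%) under GSK126 (limma, adjusted p under 0.05). Large changes ran mostly upward: 559 genes rose at least 2-fold on this scale (3.67%) and 61 fell as much (0.401%), and 55 (0.362%) against 5 (0.0329%) passed 4-fold. Over all genes, called or not, the 2 GSK126 arrays lay above both DMSO arrays in 32.6% and below both in 21.5%. The 2 GSK126 arrays lay beyond both DMSO arrays in 2753 of the 2762 called genes (18.1% of all tested). The GSK126 arrays were brighter in the lower and middle parts of their range, with median log2 signals of 6.33 and 6.34 against 6.01 and 6.14 for DMSO. Their 25th percentiles were 4.45 and 4.47 against 4.14 and 4.05, and their 75th were both 8.77 against 8.69 and 8.70. When all arrays are brought to equal medians, the median of all genes shifts by -0.23, from 0.06 to -0.17, and 777 genes rise while 3320 fall. Counts and medians of gene lists at equal medians, given below, are to be read against these values. Quantile normalization, the other scaling run, gave 1515 rises and 1042 falls, so the split between them turned under 1 of these 2 scalings. Without DMSO replicate 1, 1180 genes rose and 686 fell, and without GSK126 replicate 1 the counts were 1153 and 709.

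**Figure D1:**
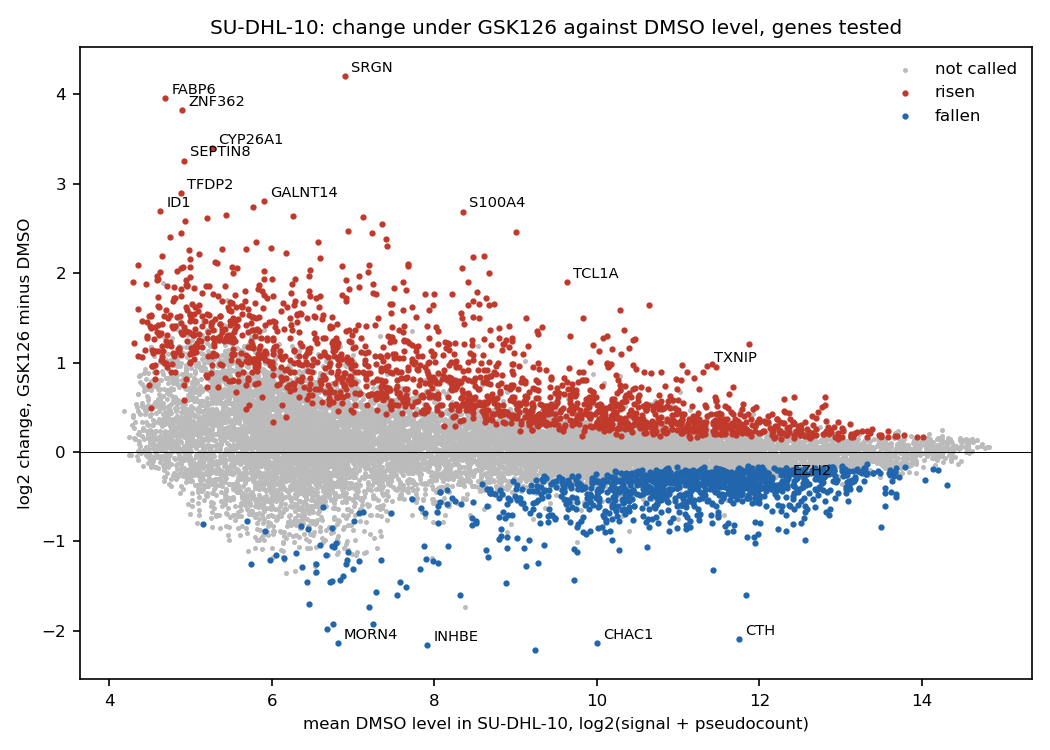
Each point is 1 of the 15211 genes tested, with its mean DMSO level in SU-DHL-10 on the x axis, as log2(signal + 17.72), and its log2 change under GSK126 on the y axis. Red points rose, blue points fell and grey points were not called. Large rises start from low levels, while the 1089 falls lie mostly at high levels and are small. The change uses the same DMSO arrays as the x axis, and genes near the floor of 4.15 have little room to fall.

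Genes that rose strongly started lower than most, which is partly built in, since the same DMSO arrays enter the change. Genes near the floor of 4.15 cannot fall 2-fold, and a gene dim under DMSO can pass the filter through its GSK126 arrays. The 559 genes that rose at least 2-fold had a median DMSO level of 5.99, against 8.59 for all genes tested, and their median under GSK126 was 7.51. In 287 of them (51.3%) both DMSO arrays were below the array median, against 20.3% of all genes tested, and 130 of these 287 were above it in both GSK126 arrays. The same 559 genes had DMSO medians between 6.32 and 7.63 in the 9 other lines. The 61 genes that fell at least 2-fold moved the other way, from a median level of 7.34 to 5.86, and 23 of them crossed from above the array median in both DMSO arrays to below it in both GSK126 arrays. The 1089 fallen genes as a whole were bright, with a DMSO median of 11.15 and a median change of -0.38.

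SRGN, which encodes serglycin, the core protein of a proteoglycan stored in granules of blood cells, had the largest rise. Its level was 6.82 and 6.97 in the DMSO arrays and 10.99 and 11.22 in the GSK126 arrays, a change of 4.21 ± 0.13 (limma, adjusted p = 7.02e-19). The groups were far apart, and a second probe set of the gene changed by 3.22. HT held SRGN at 12.99 without treatment, and 4 of the 9 other lines had more SRGN under DMSO than SU-DHL-10 under the drug. FABP6, a bile acid-binding protein of the intestine, went from 4.85 and 4.54 to 8.79 and 8.52, a change of 3.96 ± 0.19 (adjusted p = 7.85e-15). ZNF362, a zinc finger gene, stood at 4.69 and 5.10 under DMSO and at 9.04 and 8.40 under GSK126, a change of 3.83 ± 0.14 (adjusted p = 3.12e-17). Its DMSO level in 8 of the 9 other lines was above the treated level here, so SU-DHL-10 started unusually low. CYP26A1, the enzyme that clears retinoic acid, went from 5.43 and 5.09 to 8.64 and 8.68 (3.40 ± 0.40, adjusted p = 4.2e-07). No other line held CYP26A1 above 5.36 under DMSO, and it was called risen in none of them. The filter on dim genes needs only 2 arrays above the median, and these can be the GSK126 arrays of SU-DHL-10.

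The next rises covered several functions. SEPTIN8, a filament-forming GTPase, rose by 3.26 ± 0.21 from 5.02 and 4.82 to 8.17 and 8.20. TFDP2, a dimerisation partner of E2F transcription factors, rose by 2.90 ± 0.15 from 5.28 and 4.48 to 7.54 and 8.01, and 2 further probe sets gave 2.58 and 1.26. All 9 other lines held TFDP2 higher under DMSO, between 8.36 and 11.93, than SU-DHL-10 did after treatment. MPST, a mitochondrial and cytosolic sulfurtransferase that makes hydrogen sulfide from cysteine breakdown, rose by 2.74 ± 0.28, and no other line raised it. GALNT14, which starts O-linked glycans, rose by 2.81 ± 0.24, and S100A4, a calcium-binding protein linked to cell motility, by 2.69 ± 0.16 from 8.06 and 8.65 to 10.99 and 11.10. Genes of immune signalling were among the 20 largest: the cytokine IL18 rose by 2.65 ± 0.33, the receptor subunit IL23R by 2.64 ± 0.38, and the adhesion receptor ADGRE5, known as CD97, by 2.59 ± 0.32. SH3BP5, which binds the tyrosine kinase BTK, rose by 2.55 ± 0.10 from 7.41 and 7.31 to 9.76 and 10.06. TCEAL4, NLGN4X, TBC1D4, HSPA12A, RGL1 and FSD1 completed the 20, with changes from 2.63 down to 2.45. FABP6, ZNF362, SEPTIN8 and HSPA12A each have other probe sets, all dim in SU-DHL-10, that changed between -0.25 and 0.69. In 13 of these 20 genes both DMSO arrays were below the array median, and in all 13 both GSK126 arrays were above it. A rise of 2.45 or more from a floor of 4.15 ends near or above the array median. This crossing was thus built into the choice of the 20 genes.

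The largest falls were an antisense transcript, genes of amino acid stress and genes of little-studied function. LRRTM4-AS1, antisense to a neuronal adhesion gene, went from 9.21 and 9.27 to 6.68 and 7.35, a change of -2.22 ± 0.27 (limma, adjusted p = 7.71e-07). INHBE, an inhibin beta subunit, fell by 2.16 on this scale, from 7.85 and 7.98 to 5.90 and 5.61. CHAC1, which degrades glutathione, went from 9.94 and 10.05 to 8.20 and 7.51 (-2.14 ± 0.33). CTH, which makes cysteine from cystathionine, was far brighter, at 11.78 and 11.72 under DMSO, and fell to 9.78 and 9.55 (-2.09 ± 0.13, adjusted p = 1.11e-12), with -2.35 at a second probe set. MORN4 (-2.14 ± 0.22), the tight junction gene MARVELD2 (-1.98 ± 0.26) and RAB38, a small GTPase of melanosome traffic (-1.93 ± 0.32), were dim genes that ended near the floor. SPAG5-AS1 and IGSF10 fell by 1.93 and 1.60. Other probe sets of MORN4, MARVELD2, SPAG5-AS1 and IGSF10, all dim in SU-DHL-10, changed by -0.14, -0.38, -0.24 and -0.03. PNCK (-1.74) and CYP2B7P (-1.70) were not firm: CYP2B7P lost its call without any 1 of the 4 arrays, and PNCK lost its call without DMSO replicate 2, GSK126 replicate 1 or GSK126 replicate 2. P2RY12 (-1.60) lost its call with a pseudocount of 1 and with none.

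**Figure D2:**
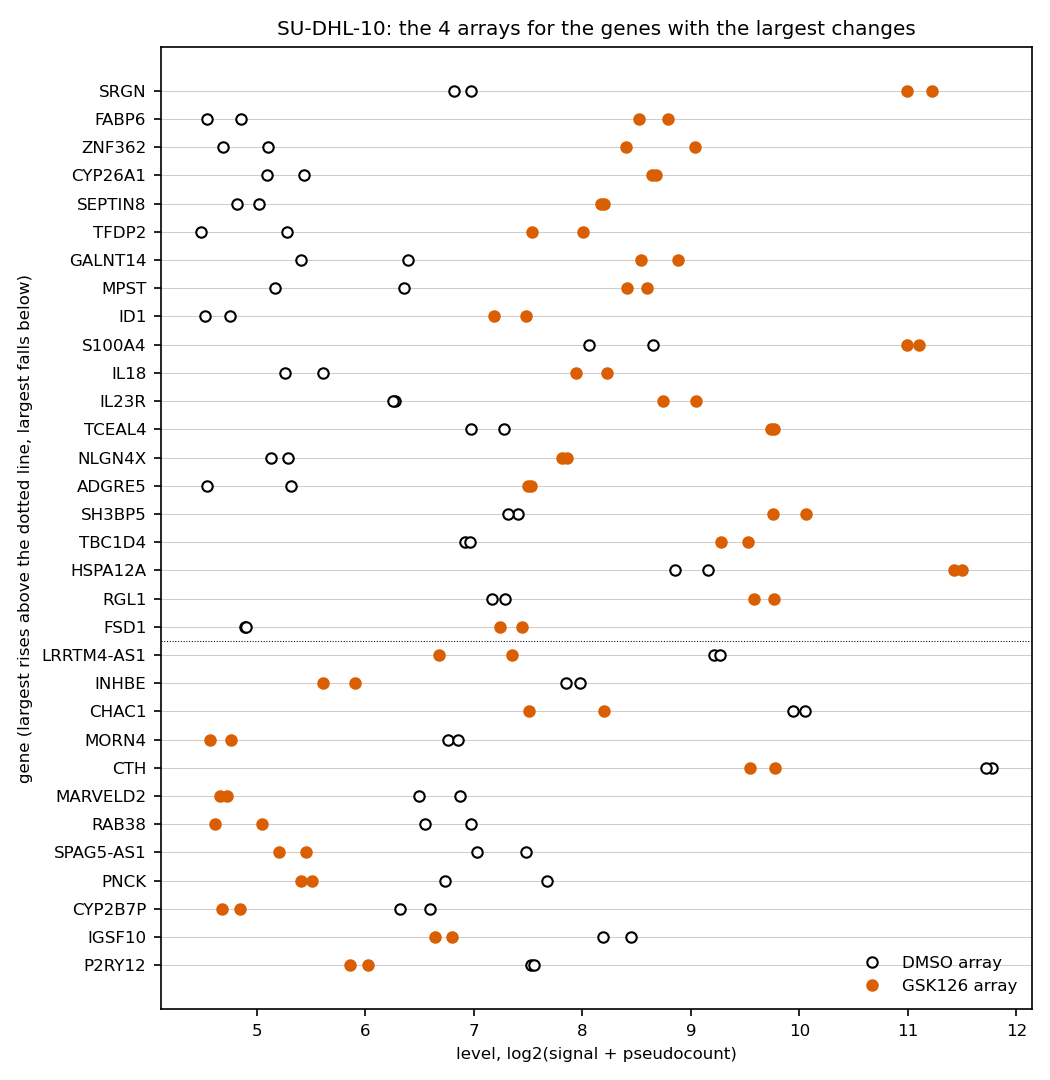
Levels on the 4 SU-DHL-10 arrays, as log2(signal + 17.72) on the x axis, for the 20 genes with the largest rises, above the dotted line, and the 12 with the largest falls, below it. Open circles are the 2 DMSO arrays and filled circles the 2 GSK126 arrays. The 32 genes were chosen only among genes whose groups do not overlap. SRGN moves from 6.82 and 6.97 to 10.99 and 11.22.

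Genes of the amino acid stress response fell together. Cells short of amino acids, or with stress in the endoplasmic reticulum, make more of the transcription factor ATF4, which then switches on genes of amino acid synthesis, import and tRNA charging. Of the 30 tested genes on a list of known ATF4 targets and partners, 18 fell and 1 rose, where 7.16% of all genes tested fell. The median of the 30 was -0.63, against 0.06 for all genes, and at equal medians it was -0.88 against -0.17. The count did not hang on 1 array: 17 or 18 fell whichever of the 4 arrays was left out, 18 with quantile normalization and 21 at equal medians. ATF4 mRNA itself was not called, at 13.72 and 13.76 under DMSO and 13.61 and 13.51 under GSK126 (-0.18 ± 0.07, adjusted p = 0.096).

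The falls reached each branch of this response. Among transcription factors, CEBPB went from 11.99 and 11.87 to 11.01 and 10.94 (-0.95 ± 0.14), ATF5 fell by 0.82 and DDIT3, known as CHOP, by 0.75. TRIB3, a pseudokinase that feeds back on ATF4, went from 11.89 and 11.81 to 10.97 and 10.83 (-0.95 ± 0.12, adjusted p = 1.52e-06). Among the enzymes, PSAT1 of serine synthesis fell by 0.84 (13.60 and 13.39 to 12.69 and 12.61), ASNS, which makes asparagine, by 0.60 (13.51 and 13.56 to 12.97 and 12.91), and mitochondrial MTHFD2 by 0.45. All 3 are abundant transcripts, and their groups did not overlap. Among amino acid carriers, the cystine importer SLC7A11 went from 12.04 and 11.84 to 10.95 and 10.90 (-1.02 ± 0.17). The neutral amino acid carrier SLC38A2 went from 12.37 and 12.29 to 11.48 and 11.40 (-0.89 ± 0.06, adjusted p = 2.93e-11). SLC7A5 fell by 0.79, SLC1A5 by 0.70, SLC3A2 by 0.65 and SLC7A1 by 0.22. SESN2, a sensor that restrains mTORC1 when leucine is short, fell by 0.85, and the lipoprotein receptor VLDLR by 1.17. STC2 is the riser of the list (1.01 ± 0.34), from 6.43 and 5.11, and it lost its call under most alternatives. PHGDH, the first enzyme of serine synthesis, was near the floor in this line (5.11 and 4.85 under DMSO) and was not called.

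Promoter sequence was examined because a short element is known at genes of this response. The element, TGATGNAA on either strand, is bound by ATF4 with a C/EBP partner. The 250 bases upstream of the RefSeq start (GRCh38.p14) held a match in 225 of 12112 tested genes with a promoter entry (1.86%). Among the list's fallen genes it was in 2 of the 16 with an entry, ASNS and CHAC1. Among the fallen aminoacyl-tRNA synthetase genes it was in 1 of 7, AARS1. Over all tested members with an entry, fallen or not, it was in 2 of 25 on the stress list and in 2 of 12 synthetase genes. A synthetase gene not called fallen thus has a match too. The promoters of ASNS, CHAC1 and AARS1 are shown 5′ to 3′ on the strand of the gene, with the match in capitals. They lie at chr7:97872409-97872658 on the minus strand for ASNS, chr15:40953221-40953470 on the plus strand for CHAC1 and chr16:70289507-70289756 on the minus strand for AARS1.
ASNS: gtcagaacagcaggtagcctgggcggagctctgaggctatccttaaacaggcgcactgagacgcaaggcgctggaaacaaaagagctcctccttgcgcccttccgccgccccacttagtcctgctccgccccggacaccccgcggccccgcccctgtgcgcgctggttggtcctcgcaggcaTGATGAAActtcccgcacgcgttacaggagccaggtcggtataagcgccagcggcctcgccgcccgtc
CHAC1: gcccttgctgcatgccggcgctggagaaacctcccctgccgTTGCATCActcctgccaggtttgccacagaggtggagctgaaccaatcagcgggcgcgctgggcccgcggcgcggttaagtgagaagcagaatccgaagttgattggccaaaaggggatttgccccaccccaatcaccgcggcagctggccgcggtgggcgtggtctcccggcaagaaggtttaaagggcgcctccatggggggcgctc
AARS1: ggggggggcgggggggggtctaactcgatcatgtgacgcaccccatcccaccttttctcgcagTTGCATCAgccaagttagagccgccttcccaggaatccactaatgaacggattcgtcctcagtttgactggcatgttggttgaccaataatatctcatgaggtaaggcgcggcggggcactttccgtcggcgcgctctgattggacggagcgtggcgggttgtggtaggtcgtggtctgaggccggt
The match begins 68 bases upstream of the start in ASNS, 209 in CHAC1 and 187 in AARS1, and it reads on the opposite strand in the last 2. CTH, with the smallest adjusted p among the 5 genes that fell at least 4-fold, has no match in this window, which says only that these letters are not there. Factor binding was not measured, so the matches describe sequence alone.

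Genes of tRNA charging fell too, as mRNA. Of the 15 cytosolic aminoacyl-tRNA synthetase genes tested, each of which loads 1 amino acid or a pair of them onto tRNA, 9 fell and 1 rose, with a median of -0.32, where 7.16% of all genes fell. WARS1 fell by 0.69 (11.18 and 10.99 to 10.40 and 10.38), AARS1 by 0.61 (12.38 and 12.36 to 11.80 and 11.72), SARS1 by 0.48 and GARS1 by 0.47. The riser was RARS1, for arginine (0.44 ± 0.09), which was not called at equal medians or without DMSO replicate 2. Leaving out 1 array gave 7 to 9 fallen genes.

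Set against the other lines, the stress genes also fell in several of them. The list's median was -0.79 in WSU-DLCL2, -0.51 in HT and -0.37 in KARPAS-422, with 20, 20 and 16 of 30 fallen, where 12.7%, 3.00% and 13.4% of all genes fell. It was -0.23 in Pfeiffer (9 fallen, background 9.93%), -0.25 in SU-DHL-4 (4 fallen, background 0.454%), -0.15 in SU-DHL-6 (6 fallen, background 3.56%), and between -0.07 and 0.02 with none fallen in DB, OCI-LY-19 and Toledo, where 0.618%, 0.440% and 0.0263% of all genes fell. The difference itself was tested gene by gene. In 14 of the 30 genes the SU-DHL-10 response was below the mean of the 9 other lines, against 5.10% of all genes tested. CTH differed by -1.70 ± 0.13 (limma, adjusted p = 6.7e-10), SLC38A2 by -0.66 ± 0.07 (adjusted p = 6.15e-08) and TRIB3 by -0.53. Against SU-DHL-6 alone 12 genes were lower and none was higher, where 3.44% and 3.91% of all genes were. Against HT 3 genes were lower and 2 higher, where 3.77% and 3.52% of all genes were. Fewer genes of the list were thus called different from HT. DDIT4, which inhibits mTORC1, showed the contrast with SU-DHL-6: it was not called in SU-DHL-10 (0.01 ± 0.14, or -0.25 at equal medians), rose there, and differed by -1.70 (adjusted p = 1.83e-06).

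**Figure D3:**
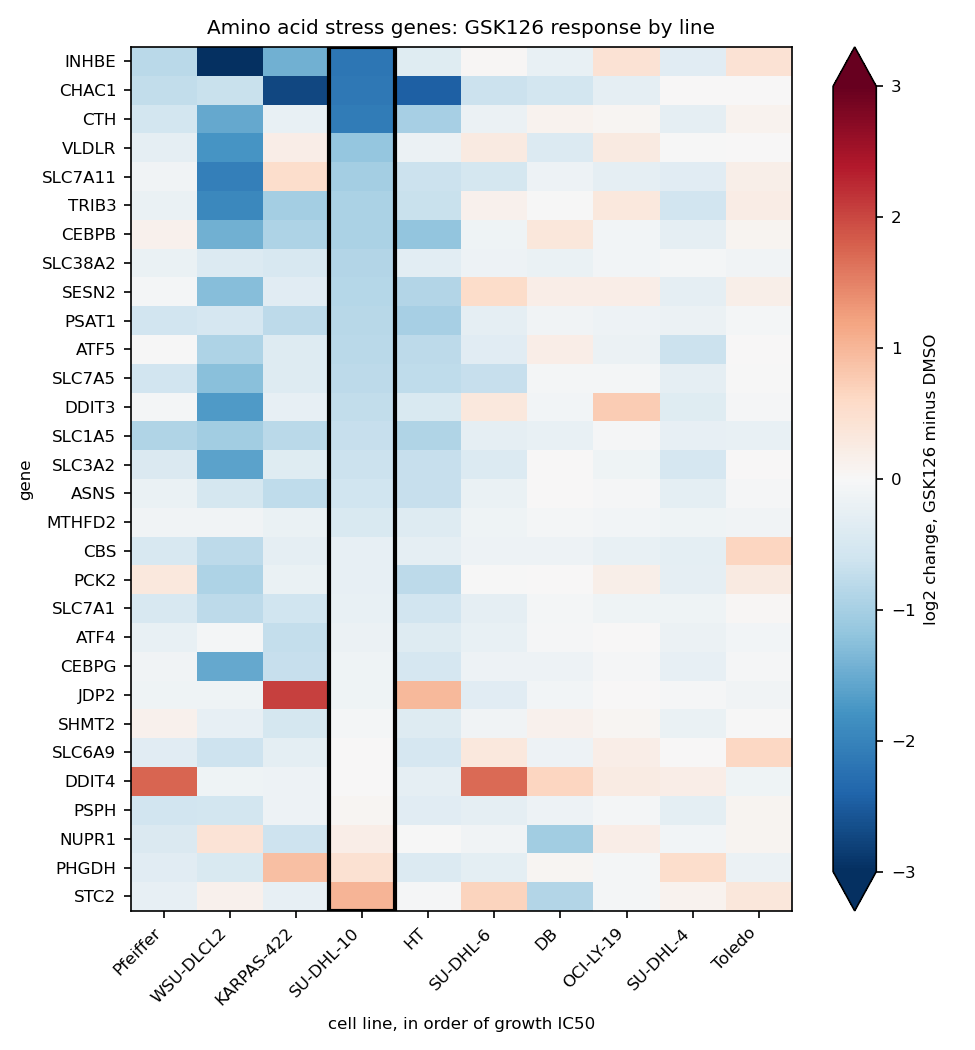
Log2 change under GSK126 of the 30 tested genes of the amino acid stress list (rows, ordered by the change in SU-DHL-10) in the 10 lines (columns, in order of growth IC50), with blue for lower and red for higher and colours saturating at 3 in size. SU-DHL-10 is boxed; INHBE, CHAC1 and CTH fall by more than 2 there, and WSU-DLCL2, KARPAS-422 and HT show falls of many of the same genes.

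Of 27 tested genes of glycolysis and hypoxia 10 fell and 1 rose, against 7.16% and 11.0% of all genes, with a median of -0.15. PDK1, which holds pyruvate back from the mitochondrion, went from 12.87 and 12.78 to 12.02 and 12.29 (-0.67 ± 0.11, adjusted p = 4.9e-05), and P4HA1, a collagen prolyl hydroxylase, fell by 0.48. The glucose carrier SLC2A3 fell by 1.22 and the glycolytic enzyme PFKL by 0.54. The SLC2A3 call was lost with a pseudocount of 1, with none and without DMSO replicate 1, and the PFKL call without DMSO replicate 1 or GSK126 replicate 2. The response was below the mean of the 9 other lines in 7 genes of the list, against 5.10% of all genes, PDK1 (-0.63, adjusted p = 0.000447) among them. The count of falls was sensitive to single arrays: leaving out DMSO replicate 1 gave 2, DMSO replicate 2 gave 5, GSK126 replicate 1 gave 6 and GSK126 replicate 2 gave 5. At equal medians the count was 16, where 3320 of all 15211 genes fell. Sterol synthesis showed 3 falls and no rise in 20 genes, led by INSIG1 (-0.34 ± 0.07). The NRF2 and glutathione list gave 2 rises and 3 falls in 14, SLC7A11 again the largest.

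Of 30 mitotic genes 12 fell and 2 rose, against 7.16% and 11.0% of all genes, with a median of -0.14, and the largest falls were those of NUF2 of the kinetochore (-0.45 ± 0.08) and the kinase AURKB (-0.45 ± 0.08). AURKB was not called when probe sets were averaged, and BIRC5 and CENPF, the risers, came out at -0.04 and -0.03 at equal medians. Of 30 genes of DNA replication 7 fell and none rose at the main scaling, with a median of -0.11. These falls were small, -0.35 for LIG1 and -0.25 for MCM7 at most. At equal medians 21 of the 30 mitotic genes and 21 of the 30 replication genes fell, and none rose. All 15211 genes then had 3320 falls and 777 rises. Without DMSO replicate 1 no replication gene fell and 5 mitotic ones did, and without GSK126 replicate 1 the counts of falls were 2 and 10. Without GSK126 replicate 2, 7 mitotic genes fell. In Pfeiffer, the most sensitive line, the replication list had a median of -0.75 and the mitosis list -0.62. SU-DHL-10 was above the mean of the 9 other lines in 6 replication genes and 4 mitotic genes, against 6.11% of all genes.

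Among 17 regulators of entry into S phase 4 fell and 1 rose, against 7.16% and 11.0% of all genes. Their median was -0.07, and 2 fell when probe sets were averaged. At equal medians 10 fell and none rose, where 3320 and 777 of all 15211 genes did. E2F1, the transcription factor that starts the S phase programme, went from 9.49 and 9.30 to 8.74 and 8.62 (-0.72 ± 0.12, adjusted p = 6.2e-05). CDK2 fell by 0.48 and CCND3, the D-type cyclin of germinal centre cells, by 0.38, though CCND3 was not called when probe sets were averaged. The riser was E2F7, at 0.31.

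Cyclin-dependent kinase inhibitors did not rise. EZH2 is known for holding down CDKN1A and CDKN2A, which arrest the cycle. CDKN1A was at 6.94 and 7.08 under DMSO and 6.02 and 6.80 under GSK126 (-0.60 ± 0.27, adjusted p = 0.135). CDKN2A was high in both, at 11.93 and 12.03 against 12.06 and 12.01, a change of 0.06 that was -0.20 at equal medians. CDKN1C changed by 0.25 ± 0.47 (adjusted p = 0.791) near the floor. Of the 6 tested, 3 fell and none rose, against 7.16% and 11.0% of all genes. The falls were those of CDKN2D (8.65 and 8.93 to 7.91 and 7.73, -0.97 ± 0.17), CDKN1B (-0.32 ± 0.09) and CDKN3 (-0.27 ± 0.05). CDKN2D was below the mean of the 9 other lines by 0.69 (adjusted p = 0.0101), but its call was lost when its probe sets were averaged. CDKN1B lost its call without any of 3 arrays, DMSO replicate 1, DMSO replicate 2 or GSK126 replicate 2.

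Of 14 BCL2 family genes 2 rose and 1 fell, shares close to those of all genes (11.0% and 7.16%). The killer gene BIK rose by 1.28 ± 0.27 (8.94 and 8.96 to 10.31 and 10.16) and BMF by 0.71, while PMAIP1, known as NOXA and also an ATF4 target, fell by 0.70 ± 0.11 (12.43 and 12.21 to 11.67 and 11.57). PMAIP1 was 0.80 below the mean of the other lines (adjusted p = 1.62e-05). BIK lost its call with a pseudocount of 1 and with none, and BMF at equal medians and without 3 of the 4 arrays. BCL2 itself was near the array median and was not called (0.30 ± 0.28). Of 12 death receptor genes 3 rose, with the ligand TNFSF10 at 1.05 ± 0.27 and the adaptor FADD at 0.43 ± 0.09, and 1 fell. TNFRSF21, a death receptor followed by the study, stayed near the floor (5.35 and 4.91 against 4.88 and 4.79), and its response was 1.14 below the mean of the other lines. TXNIP, the thioredoxin inhibitor that the study also followed, rose by 0.96 ± 0.11 from 11.46 and 11.27 to 12.33 and 12.30, with 0.97 and 0.65 at 2 further probe sets. The study chose both with these samples at hand, which makes neither direction an independent result. Among p53 targets, 3 rose and 5 fell of 19, with SESN1 at 2.08 ± 0.19 and GADD45A at 0.98 ± 0.12 the largest rises. The 5 falls became 3 without DMSO replicate 1, 3 without DMSO replicate 2 and 2 without GSK126 replicate 1.

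Of 29 tested genes of B cell identity and receptor signalling, 6 fell and 3 rose, with a median of -0.12, where 7.16% of all genes fell and 11.0% rose. The list's median was 0.00 in HT and -0.02 in SU-DHL-6, and 0.27 in Pfeiffer and 0.34 in WSU-DLCL2, where 13 and 15 of its genes rose. MS4A1, known as CD20, CD79A, PAX5 and CD22 were not called, with changes between -0.16 and 0.03, the last being CD79A, which gave -0.23 at equal medians. The Fc receptor-like genes FCRL1 and FCRL2 fell by 1.08 ± 0.27 and 1.04 ± 0.21, from 8.86 and 8.92 to 7.67 and 7.95 and from 9.51 and 9.19 to 8.38 and 8.26. VPREB3, a chaperone of the pre-B cell receptor, fell by 0.73 ± 0.06 (adjusted p = 1.55e-09), and the kinase SYK by 0.28. CD24 rose by 0.61 ± 0.09, CD79B by 0.35 and LYN by 0.26, and the last 2 were not called at equal medians. FCRL1 lost its call without GSK126 replicate 1 and with other pseudocounts. In 10 of the 29 genes the response was below the mean of the 9 other lines and in 1 above it, against 5.10% and 6.11% of all genes tested. Against HT alone 3 were lower and 5 higher, where 3.77% and 3.52% of all genes were. Against SU-DHL-6 alone 2 were lower and 2 higher, where 3.44% and 3.91% of all genes were. FCRL3 differed by -1.06 ± 0.11 (adjusted p = 9.74e-08), having risen in 5 of those lines and not in SU-DHL-10, and FCRL2 differed by -1.09 and VPREB3 by -0.76.

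Regulators of the step from germinal centre to plasma cell were not called or fell, apart from BACH2. PRDM1, known as BLIMP1, stayed low at 6.70 and 6.32 under DMSO and 6.25 under each GSK126 array (-0.27 ± 0.36, adjusted p = 0.687). IRF4 (-0.37 ± 0.18) and XBP1 (-0.33 ± 0.16) were not called, and BCL6, which keeps the germinal centre programme on, was at 13.70 and 13.47 against 13.39 and 13.33. Of the 16 genes of this list 4 fell and BACH2, a repressor of plasma cell fate, rose by 1.14 ± 0.16. Of all genes tested, 7.16% fell and 11.0% rose. The falls were those of EBF1 (12.55 in both DMSO arrays, 12.10 and 11.99 under GSK126, -0.51 ± 0.10), SPIB (-0.37 ± 0.08), MEF2C (-0.34 ± 0.08) and KLF6 (-0.34 ± 0.09, with a probe set of opposite sign). Responses lay below the mean of the other lines in 6 of the 16, against 5.10% of all genes. The difference was 0.77 for EBF1 and for SPIB, both of which rose in some other lines. Germinal centre genes fell in 4 of 18 cases, GCSAM by 0.75, HMCES by 0.66 and MME, known as CD10, by 0.38. TCL1A, a coactivator of AKT, rose by 1.90 ± 0.12 (9.74 and 9.53 to 11.59 and 11.47) and was the exception. Secretory genes were split: 6 of 22 rose, with TNFRSF17, known as BCMA, at 0.66 ± 0.08 and the chaperone HSPA5 at 0.45, and 2 fell, EDEM1 by 0.83 ± 0.08 and HERPUD1 by 0.45. At equal medians 1 of the 22 rose and 4 fell.

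**Figure D4:**
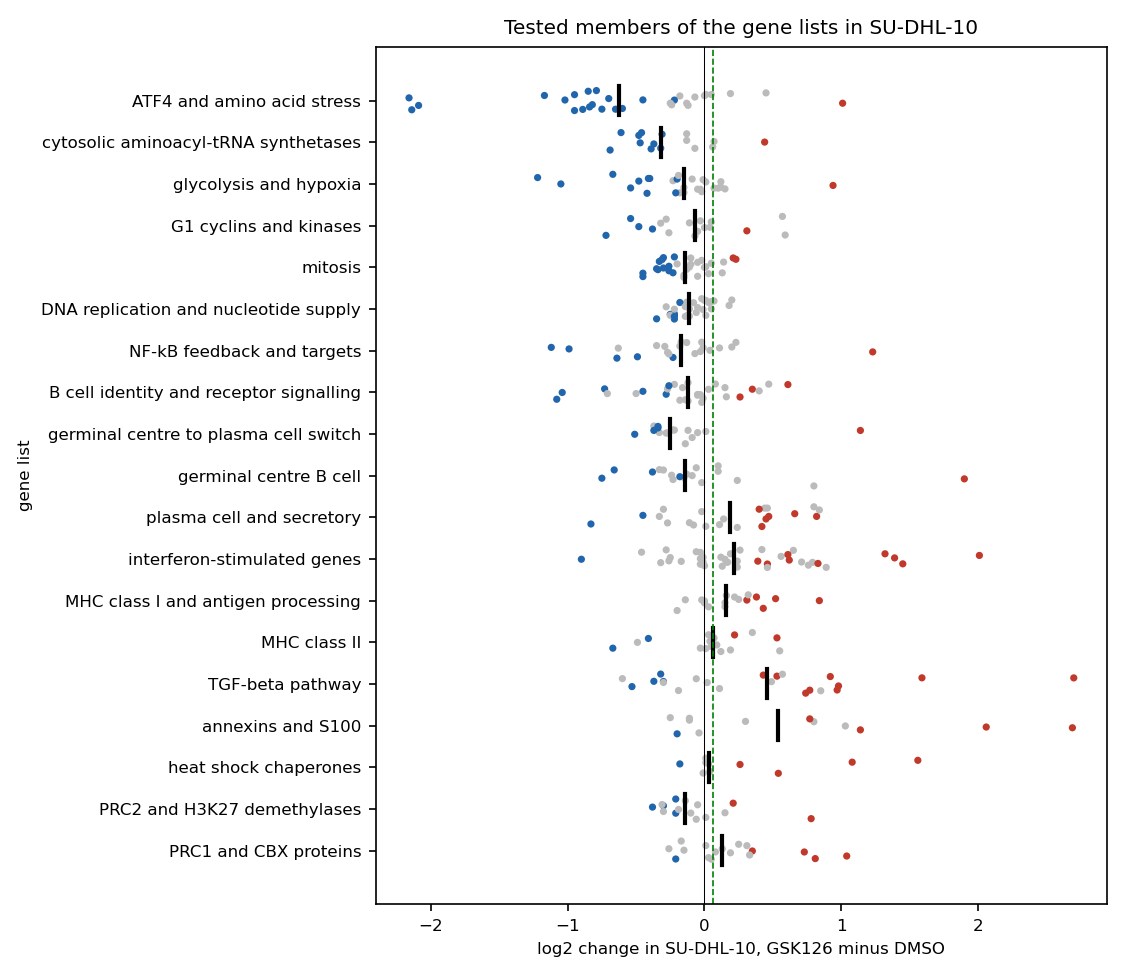
Log2 change in SU-DHL-10 of the tested members of 19 gene lists, with red for risen, blue for fallen and grey for genes not called; points are spread vertically within a list for legibility only. The black bar is the list's median and the green dashed line the median of all genes tested, 0.06; the amino acid stress list has 18 blue points of 30 and a median of -0.63, and the TGF-beta list a median of 0.46.

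Receptors and ID genes of the TGF-beta and BMP pathway rose, while other members of the list fell. These ligands act through serine-threonine kinase receptors and SMAD proteins, and the ID genes are their classic targets. Of 22 tested, 9 rose and 4 fell, with a median of 0.46, against 11.0% and 7.16% of all genes. ID1 went from 4.75 and 4.52 to 7.19 and 7.48 (2.70 ± 0.20, adjusted p = 4.5e-11), ID2 from 10.21 and 10.37 to 11.88 and 11.87 (1.59 ± 0.17), and ID3 rose by 0.74. A second ID2 probe set, above the array median on all 4 arrays, changed by only 0.24, so the size for ID2 rests on the probe set used. Among receptors ACVR1 rose by 0.97, ACVR1B by 0.92 ± 0.10 and TGFBR1 by 0.53. Of the SMADs, SMAD3 rose by 0.77, while SMAD1 (0.98) lost its call under several alternatives, leaving out DMSO replicate 2 or GSK126 replicate 2 among them. SMAD2 fell by 0.30, and its other probe sets above the array median on all 4 arrays gave -0.31, -0.35, -0.20 and -0.18. SKIL fell by 0.32 and was not called when probe sets were averaged. LTBP1, which binds latent TGF-beta, fell by 0.53, and TGFB1 fell by 0.37 at the probe set used but gave 0.39 when its probe sets were averaged. ID1 exceeded the mean of the other lines by 1.96 (adjusted p = 1.39e-07) and ID2 by 0.97, and ID1 rose in 6 other lines. At equal medians 5 rose and 8 fell, with a median of 0.22, and without DMSO replicate 1 the 4 falls became 2.

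Calcium-binding, cytoskeletal and chaperone genes gave some of the larger rises. Of all genes tested, 11.0% rose and 7.16% fell. Of 12 annexin and S100 genes 4 rose, S100A4 first, then ANXA4 (8.17 and 8.51 to 10.45 and 10.35, 2.06 ± 0.25), S100A13 (1.14, with a probe set of opposite sign) and ANXA2 (0.77). In the actin list 3 of 26 genes rose, near the share of all genes, and 1 fell. TPM1, a tropomyosin, rose by 1.69 ± 0.18 and ZYX, a focal adhesion protein, by 1.50 ± 0.25. Among 10 heat shock chaperones 4 rose, and the same count held without any 1 array. BAG3, a cochaperone of HSP70, went from 7.53 and 7.42 to 9.17 and 8.89 (1.56 ± 0.09, adjusted p = 9.58e-13), HSPB1 rose by 1.08 and DNAJB1 by 0.54. These 4 genes, BAG3, HSPB1, DNAJB1 and DNAJA1, all exceeded the mean of the 9 other lines, BAG3 by 1.08 (adjusted p = 1.11e-08). The matrix receptor subunit ITGB1 rose by 0.89 ± 0.07 and CD58, the ligand of CD2 on T cells, by 1.08 ± 0.11.

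Of 40 interferon-stimulated genes 9 rose and 1 fell, against 11.0% and 7.16% of all genes, with a median of 0.22 against 2.64 in KARPAS-422. GBP1 (4.93 and 4.32 to 6.58 and 6.70, 2.01 ± 0.31), USP18 (1.45), IFIT5 (1.39) and MX1 (1.32) were the largest and started from near the floor. ISG20 fell by 0.90 ± 0.11 and was 1.32 below the mean of the other lines (adjusted p = 5.35e-09). At equal medians the list had 5 rises, 5 falls and a median of 0.03. All 15211 genes then had 777 rises, 3320 falls and a median of -0.17. It had 5 rises without DMSO replicate 1 and 4 without GSK126 replicate 2. Of 17 class I genes 5 rose, HLA-B by 0.52 ± 0.09 and HLA-C by 0.38, and none rose at equal medians. The count of class I rises was 2 when either GSK126 array or DMSO replicate 1 was left out. Of 16 class II genes 2 rose and 2 fell, with HLA-DOA at 0.53 and HLA-DOB at -0.67 ± 0.13, a pair that both modulate peptide loading. HLA-DOA was not called at equal medians or when probe sets were averaged. A second HLA-DOB probe set, above the array median on all 4 arrays, changed by -0.09.

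Of 22 NF-kB targets 5 fell and CCR7 rose, where 7.16% of all genes fell and 11.0% rose. CCR7 lost its call with other pseudocounts, with quantile normalization and when SU-DHL-10 was fitted alone. Lymphotoxin alpha, LTA, fell by 1.12 ± 0.21 (9.62 and 9.88 to 8.64 in both), RELB by 0.64 and NFKBIZ by 0.49. A second NFKBIZ probe set, above the array median on all 4 arrays, changed by -0.02, and NFKBIZ was not called when probe sets were averaged. LTB fell by 0.99 at the probe set used, with another of opposite sign. Of 20 immediate early genes 6 fell and 2 rose. EGR1, switched on within minutes of receptor signalling, went from 11.72 and 11.97 to 10.24 and 10.26 (-1.60 ± 0.19, adjusted p = 4.05e-07) and was 1.18 below the mean of the other lines. The falls of FOS and CD69 (-1.05 and -1.19) and the rise of DUSP6 (0.96) were lost under several alternatives. Without 1 array the list had 1 to 4 falls, with 1 without DMSO replicate 1 and 2 without DMSO replicate 2 or GSK126 replicate 2. Among cytokines and receptors IL15 rose by 1.52 ± 0.35 and IL21R, the receptor of a germinal centre cytokine, fell by 0.80 ± 0.15. IL15 lost its call with other pseudocounts.

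Of 13 histone genes 5 rose and none fell (3 and 1 at equal medians), against 11.0% and 7.16% of all genes. H2AJ, a replication-independent H2A variant, rose by 1.60 ± 0.22 and H2AC6 by 1.17. Of 23 lysosome genes 6 rose and 1 fell, the protease CTSB rising most at 1.10 and CTSH by 0.57, and 2 rose at equal medians. MYC, the growth regulator, rose by 0.34 ± 0.07 from 12.56 in both DMSO arrays to 12.88 and 12.91 and was not called at equal medians, while its targets gave 3 rises, MYC included, and 3 falls in 24 genes, or 0 and 7 at equal medians.

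Of 15 genes of PRC2 and the opposing demethylases 4 fell and 2 rose, against 7.16% and 11.0% of all genes. At equal medians 10 fell and 1 rose, where 3320 and 777 of all 15211 genes did. EZH2 was at 12.35 and 12.30 under DMSO and 12.02 and 12.04 under GSK126, a change of -0.30 ± 0.06, and EED, the subunit that reads methylated lysine 27, changed by -0.21 ± 0.05. A second EED probe set, above the array median on all 4 arrays, changed by -0.03. EED was not called when probe sets were averaged or when SU-DHL-10 was fitted alone. SUZ12, the third core subunit, was not called (-0.06 ± 0.07), nor were EZH1 (-0.05) and JARID2 (0.15, or -0.10 at equal medians). MTF2, an accessory subunit, fell by 0.38 ± 0.06 and EPOP, another, rose by 0.78 ± 0.11 (8.14 and 8.43 to 9.09 and 9.03). The histone chaperone RBBP4 fell by 0.21, and PHF19 rose by 0.21 but gave -0.04 at equal medians. In PRC1, which ubiquitinates histone H2A at many of the same genes, 4 of 17 rose: PCGF2 by 1.04 ± 0.21, PHC1 by 0.81 ± 0.13, RYBP by 0.73 ± 0.07 and CBX2 by 0.35, whose averaged probe sets gave -0.01. The maintenance DNA methyltransferase DNMT1 fell by 0.55 ± 0.09, while the de novo enzymes DNMT3A (1.10) and DNMT3B (0.76) rose and each lost its call without DMSO replicate 2 or GSK126 replicate 1. Among developmental genes, the classic PRC2 targets, 2 of 13 HOX genes and 2 of 15 transcription factors rose, near the 11.0% of all genes, with ZIC2 by 1.90 ± 0.30 from 4.28 and 4.30 to 6.00 and 6.36.

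How far the response is shared was read from the calls of each line. Of the 1673 risen genes, 754 also rose in WSU-DLCL2, which is 45.1% of those of SU-DHL-10 and 35.6% of those of WSU-DLCL2. The overlap was 628 with KARPAS-422 (37.5% and 26.7%), 575 with Pfeiffer (34.4% and 25.8%), 492 with SU-DHL-6 (29.4% and 43.6%) and 388 with HT (23.2% and 40.4%). It was 192 with SU-DHL-4 (11.5% and 58.9%), 185 with DB (11.1% and 48.6%), 98 with OCI-LY-19 (5.86% and 32.8%) and 4 with Toledo (0.239% and 19%). The share of all genes that rose was 13.9% in WSU-DLCL2, 15.5% in KARPAS-422, 14.6% in Pfeiffer, 7.42% in SU-DHL-6, 6.31% in HT, 2.14% in SU-DHL-4, 2.50% in DB, 1.97% in OCI-LY-19 and 0.138% in Toledo. Of the 1089 fallen genes, 567 also fell in WSU-DLCL2, which is 52.1% and 29.4%. Over the 15211 genes, the change in SU-DHL-10 correlated best with that in WSU-DLCL2 (Pearson's r = 0.34) and least with that in Toledo (r = 0.07). These are correlations across genes, which are not independent replicates. Of the 559 genes that rose at least 2-fold, 181 (32.4%) were called risen in no other line, 6 rose in 8 of the 9 others, and none rose in all 9. Of the 61 that fell as much, 36 (59%) fell in no other line.

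The difference between SU-DHL-10 and the mean of the 9 other lines was tested for each gene in the same fit. The response was above that mean in 929 genes (6.11% of those tested) and below it in 776 (5.10%). Among risen genes 824 were also above the mean, and among fallen genes 559 were also below it. Both tests use the same SU-DHL-10 arrays, so this overlap is partly built in. The counts moved with single arrays, to 573 and 427 on leaving out DMSO replicate 1, to 587 and 461 on leaving out GSK126 replicate 1, and to 614 and 547 on leaving out GSK126 replicate 2. ZNF362 differed most, by 3.46 ± 0.15 (limma, adjusted p = 2.27e-15), since no other line exceeded 1.18. CYP26A1 followed at 3.22 ± 0.42, SRGN at 3.14 ± 0.14, where KARPAS-422 also rose by 3.91, and FABP6 at 2.83 ± 0.20, which rose in 7 other lines. HSPA12A, a distant relative of HSP70, differed by 2.63. TFDP2 differed by 2.52, MPST by 2.50 and NLGN4X by 2.48. The lowest differences were those of MORN4 (-2.06), RAB38 (-2.03), LMO7 (-1.79) and MARVELD2 (-1.78). ABAT, which degrades GABA, rose by 2.35 ± 0.15 in SU-DHL-10 and also in 8 of the 9 other lines, with a mean of 1.63 among them.

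**Figure D5:**
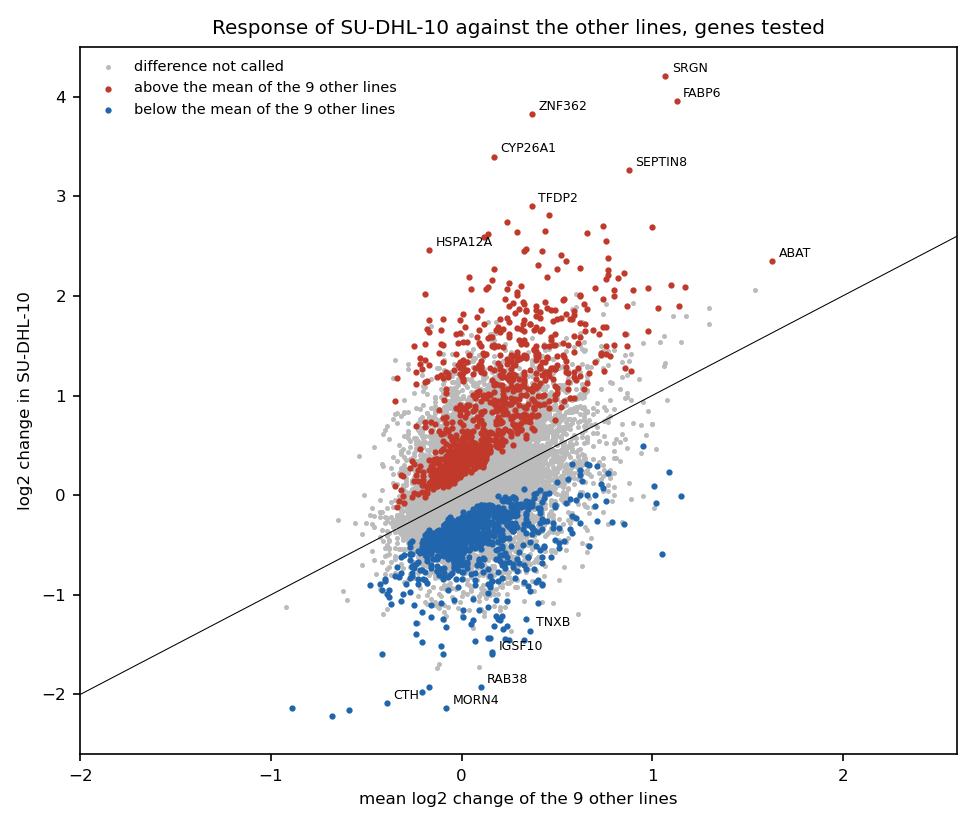
Each point is 1 of 15211 genes, with the mean log2 change of the 9 other lines on the x axis and the log2 change in SU-DHL-10 on the y axis; the line marks equal change. Red genes responded above the other lines and blue ones below them (929 and 776 genes); SRGN, FABP6 and ZNF362 lie highest, and ABAT lies at 2.35 against a mean of 1.63.

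Against single lines of similar growth IC50, the response was above HT in 535 genes (3.52%) and below it in 574 (3.77%). It was above SU-DHL-6 in 595 genes (3.91%) and below it in 523 (3.44%). SRGN differed by 4.08 from HT and by 3.88 from SU-DHL-6, and ZNF362 by 3.19 and 3.34. IL23R was 3.05 above HT, where it did not rise. MYH11, smooth muscle myosin, rose by 1.80 ± 0.30 in SU-DHL-10 and was 3.23 above SU-DHL-6, in which it changed by -1.42. The adaptor gene LMO7 fell by 1.45 in SU-DHL-10 and was 2.84 below HT. Without DMSO replicate 1 the differences from SU-DHL-6 numbered 730 in place of 1118.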

How the data were processed

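Biotin-labelled RNA was hybridised to 1-colour Affymetrix arrays. The deposited log2 values are MAS5 signals, per the submitters' processing notes, and no source used here gives the version. A check found the linear 2% trimmed mean at 500.0 on each array, so the authors' values were already scaled. They were made linear again and analysed on the scale log2(signal + 17.72), the pseudocount being the median over arrays of the 25th percentile, which understates the change of dim genes. Of 54675 probe sets, 41091 had 1 symbol in the platform annotation, 1801 several and 11721 none, and 62 were controls. A gene takes its brightest probe set and was tested where that was above the array median on at least 2 of 40 arrays.

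Groups came from the labels. A linear model with a mean for each group was fitted to the 40 arrays in limma 3.58.1, under R 4.3.3 (20 residual degrees of freedom, prior 6.98), moderated with an intensity trend and Benjamini-Hochberg adjusted over 15211 genes, and the same fit gave the differences between responses. The labels do not say how the 2 cultures of a group were separated, so p-values measure the spread between such arrays, and their number limits the precision. The deviations of same-numbered arrays correlated at 0.04 in SU-DHL-10, so the numbers do not pair the samples. The procedure was tested on simulated data.

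Genes named are the 20 largest rises and 12 largest falls among called genes whose arrays do not overlap, up to 4 called genes each way per list, all members of 4 short lists, and the largest differences from other lines (10 each way, or 5 for HT and SU-DHL-6). Other genes named were chosen after their values were seen. The members, lists and rules were chosen with earlier results of these data known. Alternatives were the pseudocount, scaling, filter, probe set rule, arrays fitted, variance model, a replicate block and leaving out each SU-DHL-10 array. Promoters are from RefSeq (GRCh38.p14), for 12112 of the genes tested. Results for 1 list of genes are not reported here.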

Additional observations from a re-analysis of the deposited data

Results flagged for a closer look

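The responses below differed between SU-DHL-10 and other lines by limma's test of the difference itself, each with an adjusted p under 0.05. Values are the SU-DHL-10 response minus the other response on the log2 scale, and no explanation was tested.

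Against the mean of the 9 other lines, the 10 genes highest above were ZNF362 at 3.46, CYP26A1 at 3.22, SRGN at 3.14, FABP6 at 2.83, HSPA12A at 2.63, TFDP2 at 2.52, MPST at 2.50, NLGN4X at 2.48, ADGRE5 at 2.47 and SEPTIN8 at 2.38. All 10 kept the call under each of the 13 or 14 alternatives run on them, but some sizes rest on the probe set used. When probe sets were averaged, FABP6 gave 1.02, ZNF362 1.34, SEPTIN8 0.67 and HSPA12A 1.17, their other probe sets being above the array median on none of the 4 SU-DHL-10 arrays. CYP26A1, NLGN4X, ADGRE5 and HSPA12A had 13 alternatives because the stricter filter on dim genes removed them. The 10 lowest were MORN4 at -2.06, RAB38 at -2.03, LMO7 at -1.79, MARVELD2 at -1.78, SPAG5-AS1 at -1.76, IGSF10 at -1.76, RAPGEF3 at -1.73, TNXB at -1.72, CTH at -1.70 and DSCR10 at -1.70. Of these, TNXB kept the call under 6 of 13 alternatives and DSCR10 under 4 of 13, and TNXB was itself not called in SU-DHL-10 (-1.36 ± 0.50, adjusted p = 0.0594). SPAG5-AS1 and LMO7 lost the call when probe sets were averaged, and RAPGEF3 lost it then and also on leaving out DMSO replicate 1 or GSK126 replicate 1. TNXB lost it on leaving out any 1 SU-DHL-10 array, and DSCR10 on leaving out any but GSK126 replicate 2.

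Against HT, the genes furthest above were SRGN at 4.08, CYP26A1 at 3.48, ZNF362 at 3.19, ADGRE5 at 3.06 and IL23R at 3.05, and those furthest below were LMO7 at -2.84, RAB38 at -2.72, LINC01144 at -2.39, IGSF10 at -2.32 and MORN4 at -2.30. IL23R lost the call with a pseudocount of 1 and with none. LINC01144 kept it under 8 of 14 alternatives.

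Against SU-DHL-6, the genes furthest above were SRGN at 3.88, ZNF362 at 3.34, MYH11 at 3.23, GALNT14 at 3.17 and CYP26A1 at 3.12, and those furthest below were TMEM88 at -2.59, CYTOR at -2.46, RAPGEF3 at -2.42, LRRTM4-AS1 at -2.37 and CDK5R2 at -2.28. TMEM88, CYTOR and CDK5R2 were not called in SU-DHL-10 itself, with changes of -0.72, -0.68 and -0.59, and rose in SU-DHL-6. TMEM88 kept the call under 2 of 13 alternatives and CDK5R2 under 8 of 13.

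Of the gene lists, the ATF4 and amino acid stress list had 14 members with a lower response than the mean of the 9 other lines, of 30 tested. The list of B cell identity and receptor signalling had 10 such members, of 29 tested. Over all genes tested that share was 5.10%.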

How the results depend on the processing

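Bringing arrays to equal medians moved most counts: 777 genes rose in place of 1673 and 3320 fell in place of 1089, 377 were above the 9 other lines in place of 929, and 611 differed from SU-DHL-6 in place of 1118. Fitting only the lines compared gave 930 risen, 670 fallen, 724 differences from HT in place of 1109 and 420 from SU-DHL-6. Leaving out 1 SU-DHL-10 array gave 1153 to 1422 risen and 686 to 884 fallen, 573 to 784 above and 427 to 607 below the other lines, 752 to 996 differences from HT and 730 to 1060 from SU-DHL-6. Among called named genes the sign turned in 9: at equal medians PHF19 gave -0.04, CENPF -0.03, BIRC5 -0.04 and HLA-DMA -0.03, and with averaged probe sets CBX2 gave -0.01, MBD2 0.19, LAMP2 0.09, TGFB1 0.39 and VCL 0.48. The cause was not tested. Of 210 called named genes, 165 kept the call at equal medians, 145 fitted alone, 170 with averaged probe sets, 189 with a pseudocount of 1, 189 with quantile normalization and 152 to 168 with 1 array left out. The replicate block, with same-numbered arrays sharing only a number, gave 1539 risen, 972 fallen, 788 above and 638 below the other lines, 866 differences from HT and 925 from SU-DHL-6, and 190 of the 210 calls were kept. The probe sets of a gene can disagree: 113 of 238 named genes had another bright probe set, and 17 called ones had such a probe set of opposite sign. Dim genes near the floor of the scale have understated changes.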

Other observations

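Some called genes fall outside the lists, and those below were chosen after their values were seen. LRRTM4, a synaptic adhesion gene, rose by 1.38 ± 0.30 (6.04 and 6.25 to 7.34 and 7.72, limma, adjusted p = 0.00114) while its antisense transcript LRRTM4-AS1 fell by 2.22, and LRRTM4 rose in no other line. The type IV collagen chains COL4A3 and COL4A4, which share a promoter region, rose together, by 1.85 ± 0.28 (7.04 and 7.09 to 8.84 and 8.99) and 2.04 ± 0.29 (6.82 and 6.12 to 8.38 and 8.63). Both exceeded the mean of the 9 other lines, by 1.51 and 1.74. BMP7, a ligand of the pathway that induces ID genes, rose by 2.31 ± 0.28 (7.42 and 7.41 to 9.76 and 9.69, adjusted p = 4.78e-07), and NOG, a secreted inhibitor of BMP ligands, rose by 1.63 ± 0.45 from near the floor. HES1, a Notch target, rose by 1.83 ± 0.23 (7.24 and 7.78 to 9.40 and 9.29), against at most 0.90 in any other line.

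Among Wnt pathway genes, WNT5A rose by 1.73 ± 0.25 and the effector TCF7L2 by 1.37 ± 0.25 (8.76 and 8.62 to 10.11 and 10.01). The receptor FZD2 rose by 1.69 ± 0.37 with its DMSO arrays apart, at 6.51 and 4.83. The cancer-testis genes MAGEA6 and PRAME rose by 1.66 ± 0.40 and 1.67 ± 0.34. SESN3 rose by 1.72 ± 0.30 and SESN1 by 2.08, whereas SESN2, their relative on the amino acid stress list, fell by 0.85. FCRL4 rose by 1.52 ± 0.31 while FCRL1 and FCRL2 fell, and its call was lost with other pseudocounts. CYP1A1 rose by 1.75 ± 0.34, and the retinoic acid receptor genes RARA and RARB beside the rise of CYP26A1 changed by -0.03 and -0.02 without being called.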
